A study of Homo sapiens with 10 samples.

Results

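The thioredoxin and glutaredoxin system was read out through 7 genes, TXN, TXN2, TXNRD1, TXNRD2, TXNIP, GLRX and GLRX2, chosen by name. All 7 had a row among the 12540 genes of the deposited table, and all 7 passed the filter on low counts. Polyadenylated RNA was taken from the human lens epithelial line SRA01-04, which a viral large T antigen keeps dividing. The empty vector group (5 libraries, EV1 to EV5) carried an empty plasmid, and the RORA overexpression group (5 libraries, OE1 to OE5) a plasmid for RORα, a nuclear receptor that binds DNA as a monomer. Every library came from transfected cells that received 10 µM selenite for 24 h, begun 48 h after transfection, so no group lacked either selenite or a plasmid. The labels name 1 cell line and leave unsaid whether the replicates grew as separate cultures, so p-values reflect the spread between libraries, which may be technical.

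Library totals ran from 17475342 to 21956761 counts. RORA stood at 11.2 to 17.0 CPM (counts per 1000000 counts of the scaled library total) in the empty vector libraries and at 38.6 to 44.0 CPM in the overexpression libraries, with no overlap (exact two-sided permutation test, p = 0.00794, the smallest that 5 against 5 libraries allow). Gene counts do not separate plasmid from chromosomal RORA transcripts. Of 17 lens markers listed, 7 had a row, among them PAX6 (19.6 and 20.9 CPM), SIX3 (7.99 and 8.05 CPM) and CRYAB (1.43 and 0.370 CPM), while FOXE3, PROX1, CRYAA and 7 more had none, which does not show that they were silent. Of the 7 measured lens markers 2 rose and 2 fell, CRYAB among the latter. Their sum, 1835 to 1920 CPM in the empty vector group and 2422 to 2466 CPM in the overexpression group, was mostly vimentin (VIM, 1526 and 2065 CPM), which other cell types also express. Of 9 fibroblast markers 7 were measured, and their summed level was 2980 to 3209 CPM in the empty vector group and 971 to 1092 CPM in the overexpression group. All 7 fibroblast markers fell in edgeR's test, in which 27.5% of all genes tested were lower and 28.6% higher. The fall was not particular to fibroblast markers. The only immune, endothelial and corneal markers measured fell too: CD14 (2.98 to 1.49 CPM), PECAM1 (5.88 to 3.16 CPM) and KRT3 (2.67 to 0.367 CPM). The 2 pigment cell or retina markers measured did not pass. The part of these differences in the results below was not tested. Fewer cells of a type and less RNA per cell cannot be told apart in such libraries.

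Thioredoxins are small proteins that reduce disulfide bonds in other proteins and are themselves reduced by thioredoxin reductases with electrons from NADPH. TXN and TXNRD1 serve the cytosol and nucleus, TXN2 and TXNRD2 the mitochondria, and TXNIP binds reduced thioredoxin and blocks it. Glutaredoxins take their electrons from glutathione and remove glutathione from oxidised protein thiols, a repair long studied in the lens, where such mixed disulfides build up in cataract. Thioredoxin reductases are selenoproteins and can reduce selenite itself.

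The chemistry of the system rests on a pair of cysteines in thioredoxins and glutaredoxins and on a selenocysteine near the end of the reductases. These stretches are shown because they are what the members share. They are coding bases of the GENCODE 29 principal transcripts on GRCh38, 5′ to 3′ on the gene's own strand, 30 bases each, with the codons of the active-site cysteines in capitals, or, for the reductases, the in-frame TGA that is annotated as selenocysteine.
TXN: gccacgtggTGTgggcctTGCaaaatgatc
TXN2: gcacagtggTGTggacccTGCaagatcctg
GLRX: aagcccaccTGCccgtacTGCaggagggcc
GLRX2: aaaacatccTGTtcttacTGTacaatggca
TXNRD1: gcaagcatcctccaggctggctgcTGAggt
TXNRD2: ctggaccccacggtgacaggctgcTGAggg
In both reductases the TGA follows a cysteine codon and is the last codon but 1 before the stop. These stretches lie at chr9:110251373-110251402 for TXN, chr5:95822576-95822605 for GLRX, chr1:193097695-193097724 for GLRX2, chr12:104348389-104348418 for TXNRD1 and chr22:19877108-19877137 for TXNRD2. That of TXN2 crosses an intron between chr22:36476832 and chr22:36480579.

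The only comparison that the labels give, RORA overexpression minus empty vector, asks how each of these genes differs with added RORα in lens cells under selenite. TXNIP, the inhibitor, rose most (3.87-fold), followed by GLRX (2.32-fold), TXNRD1 (1.54-fold), GLRX2 (1.23-fold) and TXN (10.1% higher). The mitochondrial pair TXN2 and TXNRD2 fell slightly, to 0.905 and 0.911 times the empty vector level. In edgeR's quasi-likelihood test 7 of 7 members were called, 5 higher and 2 lower (Benjamini-Hochberg adjusted p under 0.05). In the same test 56.1% of all 12520 genes tested were called, 28.6% higher and 27.5% lower, so being called sets no member apart, and size matters more. The median log2 fold change was 0.30 over the members and 0.0027 over all genes tested. A larger change in either direction was found in 1.03% of genes tested for TXNIP, 3.27% for GLRX, 11.4% for TXNRD1 and 30.6% for GLRX2. For TXN, TXN2 and TXNRD2 that share was 60.0%, 58.6% and 60.9%, so their changes were smaller than that of the typical gene.

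**Figure D1:**
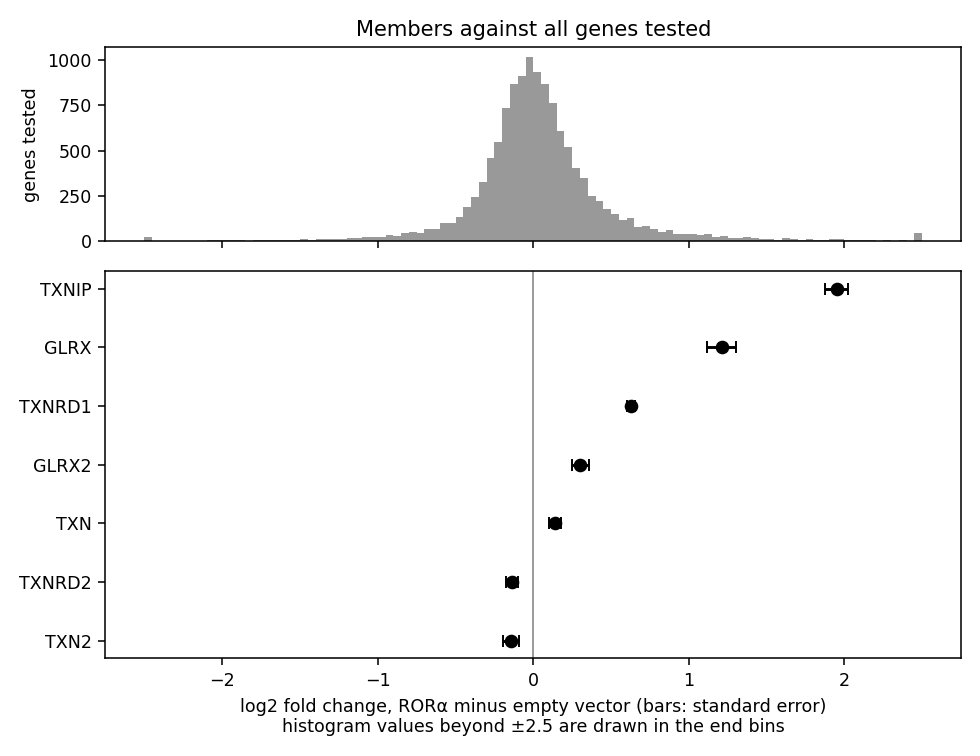
The upper panel is a histogram of log2 fold changes (RORA overexpression minus empty vector) over the 12520 genes tested, and the lower panel gives the 7 members with their standard errors on the same axis. TXNIP (1.95) and GLRX (1.21) lie in the right tail, while TXN (0.14), TXN2 (-0.14) and TXNRD2 (-0.14) lie within the bulk of all genes.

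TXN (ENSG00000136810, chromosome 9, 110243811 to 110256640, minus strand, GRCh38) encodes the thioredoxin of the cytosol and nucleus. It stood at 125, 129, 124, 127 and 126 CPM in EV1 to EV5 and at 146, 143, 139, 130.0 and 137 CPM in OE1 to OE5. The groups did not overlap, but OE4 was only 1.09 CPM above EV2, the highest empty vector library. The means were 126 ± 1.81 and 139 ± 6.05 CPM (SD, n = 5 per group), and edgeR put the log2 fold change at 0.14 ± 0.0360 (SE, adjusted p = 0.0011). Of the 7 members 5 had groups without overlap, all higher with RORα. Over all genes tested 39.6% had such groups, 20.8% higher and 18.9% lower. The TXN transcript is 90.3% to 93.6% identical over at least 200 bases to 4 processed pseudogenes, which cover up to 42.9% of it and have no row in the table, and none of the sources used here says how reads matching several places were counted.

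TXN2 (ENSG00000100348, chromosome 22, 36467036 to 36482030, minus strand) encodes the mitochondrial thioredoxin. Its values were 48.6, 45.8, 45.2, 49.9 and 48.2 CPM in EV1 to EV5 and 42.0, 39.4, 44.9, 42.8 and 45.9 CPM in OE1 to OE5. All 5 overexpression libraries lay below the empty vector median and 4 lay below the lowest empty vector library, with OE5 inside the empty vector range. The means were 47.5 ± 1.97 and 43.0 ± 2.55 CPM (SD, n = 5 per group), and edgeR put the log2 fold change at -0.14 ± 0.0505 (SE, adjusted p = 0.0143). This call rested on OE2, the lowest library: without it the log2 fold change was -0.11 and the edgeR adjusted p 0.0608, against a range of 0.00686 to 0.0608 over all alternatives. Of its transcript, 28.9% matched 1 processed pseudogene at 90.8% identity.

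TXNRD1 (ENSG00000198431, chromosome 12, 104215779 to 104350305, plus strand) encodes the cytosolic thioredoxin reductase and gave most of the reads of the system. Its values were 931, 917, 940.1, 894 and 911 CPM in EV1 to EV5 and 1451, 1443, 1390.4, 1418 and 1388 CPM in OE1 to OE5. The lowest overexpression library was 448 CPM above the highest empty vector library, while libraries within a group lay close together. In edgeR its log2 fold change came to 0.63 ± 0.0247 (SE, adjusted p = 1.88e-23). TXNRD1 supplied 71.7% to 73.6% of the members' counts in the empty vector libraries and 78.1% to 79.2% in the overexpression libraries. All 7 members together took 0.124% to 0.128% of a library's counts in the first group and 0.178% to 0.184% in the second.

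TXNRD2 (ENSG00000184470, chromosome 22, 19875517 to 19941992, minus strand) encodes the mitochondrial reductase. It stood at 128, 128, 122, 129 and 118 CPM in EV1 to EV5 and at 108, 112, 121, 115 and 114 CPM in OE1 to OE5. The groups overlapped, since OE3 stood above EV5, and the other 4 overexpression libraries lay below every empty vector library. The means were 125 ± 4.77 and 114 ± 4.77 CPM (SD, n = 5 per group), and edgeR put the log2 fold change at -0.14 ± 0.0380 (SE, adjusted p = 0.00262).

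TXNIP (ENSG00000265972, chromosome 1, 145992435 to 145996600, minus strand) encodes the thioredoxin-interacting protein, an alpha-arrestin that also limits glucose uptake. Its values were 8.09, 9.02, 6.97, 7.32 and 9.00 CPM in EV1 to EV5 and 30.2, 30.7, 31.6, 32.4 and 31.7 CPM in OE1 to OE5. The lowest overexpression library was more than 3 times the highest empty vector library, and the overexpression libraries lay close together. In edgeR its log2 fold change came to 1.95 ± 0.0750 (SE, adjusted p = 7.58e-24), and 84 of the genes tested (0.671%) rose by more. The counts behind these values were 128 to 181 per empty vector library and 567 to 662 per overexpression library.

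The region just upstream of TXNIP is shown because its transcript changed most and because this promoter is known for carbohydrate response elements, paired E-boxes bound by MondoA or ChREBP with MLX. The 229 bases shown, chr1:145996601-145996829 on the minus strand, are part of the RefSeq (GRCh38.p14) promoter window. They were cut to end just before the first base of the GENCODE gene. The RefSeq start, from which motif positions are counted below, lies 21 bases further downstream at chr1:145996579. Capitals mark the E-box pair and 2 CCAAT boxes, of which the first is on the other strand.
TXNIP promoter: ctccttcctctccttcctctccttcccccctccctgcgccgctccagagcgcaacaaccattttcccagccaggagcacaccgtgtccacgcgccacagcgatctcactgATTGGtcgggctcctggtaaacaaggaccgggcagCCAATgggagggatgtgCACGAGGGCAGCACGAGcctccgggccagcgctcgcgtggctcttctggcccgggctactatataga
Motifs were searched by exact letters on both strands in windows from 250 bases before to 50 bases after the RefSeq start, for 6 members. The RefSeq start used was the one nearest to that of the principal transcript. It lay 350 bases away for TXNRD1, 174 for TXNRD2, 133 for TXN, and 0 to 21 for TXNIP, GLRX and GLRX2. A motif absent from a window may therefore lie near the other start. A window for TXN2 was not used here. The E-box pair, CACGAG repeated after 5 bases, lay at -88 to -72 from the RefSeq TXNIP start and in no other member window. It lay in 2 of 35116 promoter windows (0.0057%), its own among them. The letters searched are those of the TXNIP pair itself, so a match there was given in advance. Looser forms of the carbohydrate response element were not searched, so these counts do not show how common such elements are. AGGTCA, the core half-site of RORα and many other nuclear receptors, was found in GLRX2 (-77 to -72, other strand), in no other member window, and in 13.8% of all windows. TGACNNNGC, the core of the antioxidant response element, was found in TXNRD1 (-102 to -94, other strand), in no other member window, and in 13.3% of all windows. CCAAT was found in TXNIP, GLRX and TXNRD1 and in 34.6% of all windows, and the E-box CACGTG in none of the 6 and in 7.26% of all windows. No motif searched here overlapped another in the member windows, and such matches describe letters only.

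GLRX (ENSG00000173221, chromosome 5, 95751319 to 95823005, minus strand) encodes glutaredoxin 1, the cytosolic thioltransferase. It stood at 6.84, 7.28, 5.45, 6.40 and 6.70 CPM in EV1 to EV5 and at 15.2, 13.6, 17.1, 15.4 and 14.5 CPM in OE1 to OE5. Every overexpression library lay well above every empty vector library, the nearest pair being 6.32 CPM apart. In edgeR its log2 fold change came to 1.21 ± 0.0939 (SE, adjusted p = 3.53e-14), from 111 to 146 counts per empty vector library and 269 to 334 per overexpression library. In 2 processed pseudogenes, of at least 92.8% identity to its transcript, the match covered 23.5% of it, and neither has a row in the table.

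GLRX2 (ENSG00000023572, chromosome 1, 193090866 to 193106114, minus strand) encodes glutaredoxin 2, an iron-sulfur protein with mitochondrial and nuclear forms. Its values were 33.8, 34.2, 33.4, 33.1 and 31.4 CPM in EV1 to EV5 and 40.7, 41.9, 37.5, 42.9 and 41.8 CPM in OE1 to OE5. The groups did not overlap, and OE3 was the lowest of its group, 3.23 CPM above EV2. In edgeR its log2 fold change came to 0.30 ± 0.0526 (SE, adjusted p = 5.48e-06). GLRX2 thus moved up, unlike the other members that serve mitochondria, though gene counts do not tell its mitochondrial from its nuclear transcripts. It shares 481 exonic bases, 7.75% of its exons, with RO60 on the opposite strand, which stood at 57.4 and 54.4 CPM (edgeR adjusted p = 0.18). The labels name no step that keeps strand, so reads from the shared bases cannot be told apart.

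**Figure D2:**
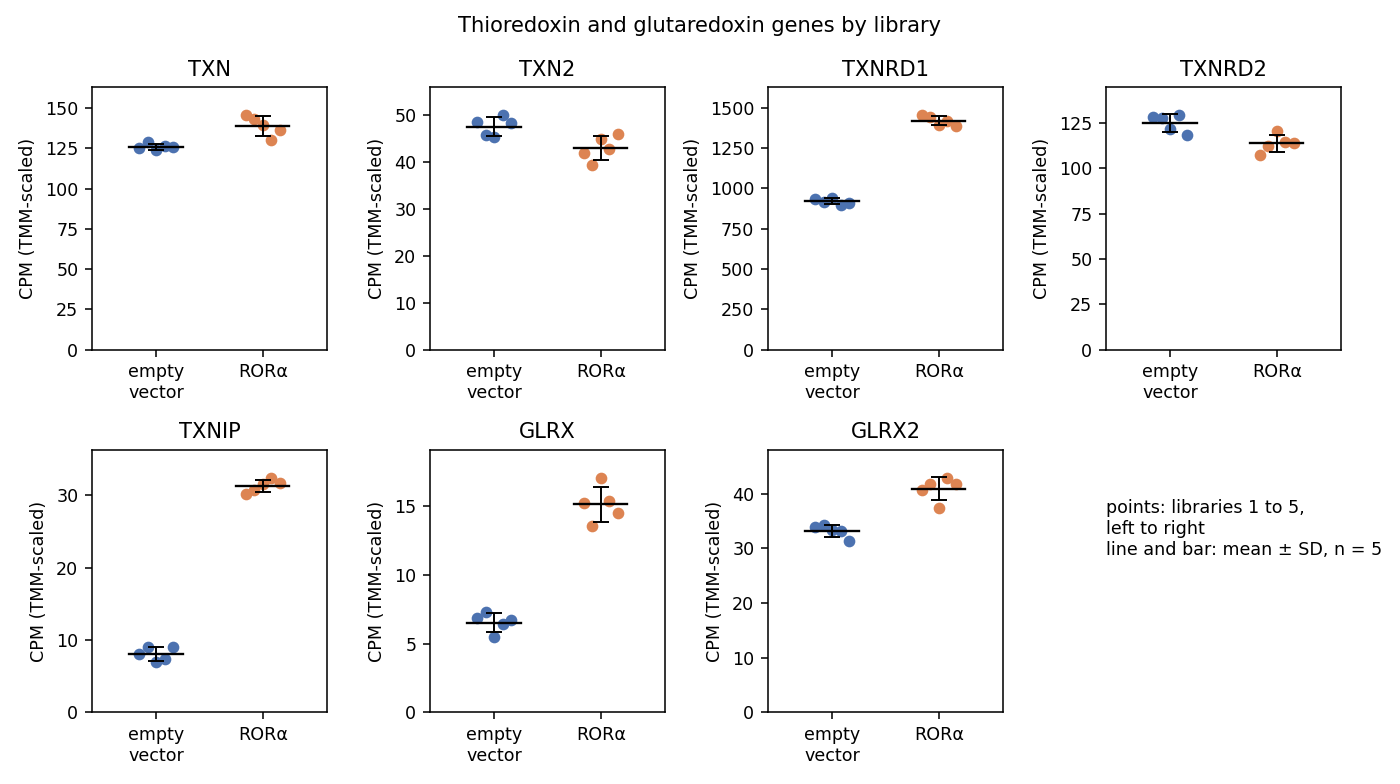
Each panel gives 1 member, with the 5 libraries of each group as points in replicate order (CPM with TMM scaling, axis from 0) and the mean ± SD (n = 5) as line and bar. TXNIP, GLRX and TXNRD1 separate widely, TXN and GLRX2 narrowly, and the groups of TXN2 and TXNRD2 overlap.

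Because depth cancels in a ratio of counts within a library, 4 ratios were compared to see whether members moved unequally. TXNRD1 read 7.26, 7.18, 7.73, 6.91 and 7.69 times as many counts as TXNRD2 in EV1 to EV5 and 13.5, 12.8, 11.5, 12.4 and 12.1 times as many in OE1 to OE5. The balance between the reductases thus moved 1.70-fold toward the cytosolic gene. The ratio of TXN to TXN2 was 2.66 ± 0.117 and 3.24 ± 0.288 (SD, n = 5 per group), a 1.22-fold shift in the same direction. The ratio of GLRX to GLRX2 went from 0.198 ± 0.0205 to 0.372 ± 0.0501 (SD, n = 5 per group), a 1.88-fold shift, so GLRX rose more than GLRX2. TXNIP had 0.0642 ± 0.00689 counts for each TXN count in the empty vector group and 0.226 ± 0.0161 in the overexpression group (SD, n = 5 per group), a 3.53-fold shift of inhibitor against target transcript. For each of the 4 ratios the groups did not overlap, and each gave p = 0.00794 in an exact two-sided permutation test, the smallest possible, and 0.00794 after Benjamini-Hochberg adjustment over the 4. Such ratios show unequal change between the members of each pair and compare transcripts, not proteins.

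**Figure D3:**
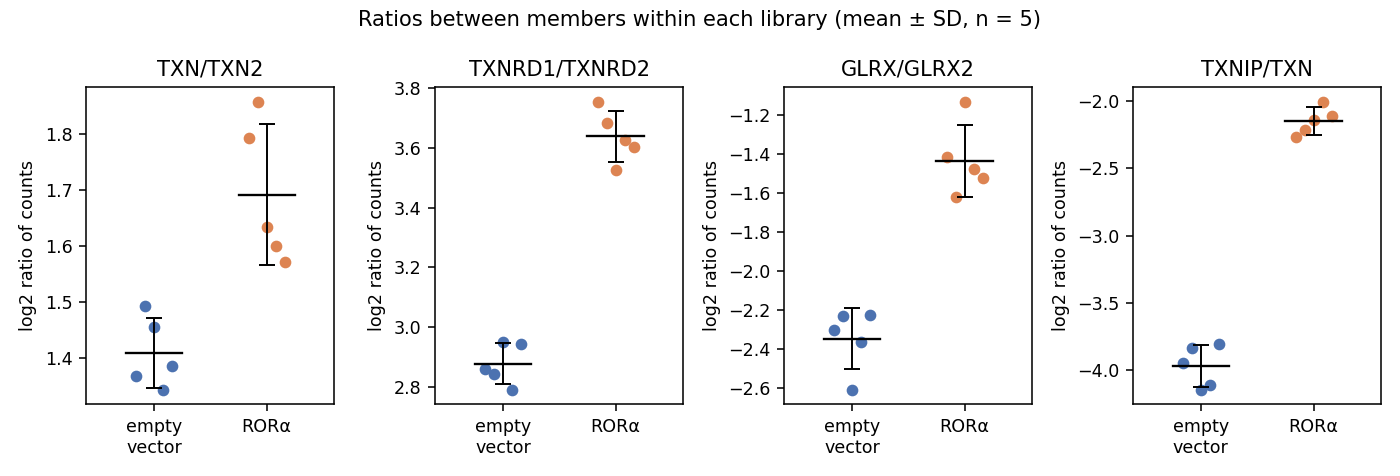
Each panel gives the log2 ratio of counts between a pair of members in the 5 libraries of each group (points) with the mean ± SD (n = 5). In all 4 panels the overexpression libraries lie above the empty vector libraries, by 0.28 for TXN/TXN2, 0.76 for TXNRD1/TXNRD2, 0.91 for GLRX/GLRX2 and 1.82 for TXNIP/TXN.

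Levels of different genes were compared as CPM per kb of the principal transcript. In the empty vector group TXNRD1 was highest at 234 CPM per kb, followed by TXN at 145, TXNRD2 at 59.1, GLRX2 at 29.4, TXN2 at 27.4, GLRX at 4.78 and TXNIP at 2.76. The ranges of GLRX2 and TXN2 overlapped over the 5 libraries, and all other neighbours in this order were apart. On this basis the order was the same in the overexpression group, with TXNRD1 at 361 CPM per kb and TXN at 160, but GLRX (11.1) and TXNIP (10.7) now overlapped. On this scale TXNIP transcripts numbered 1.91 for every 100 TXN transcripts in the empty vector group and 6.71 in the overexpression group. The length matters: per kb of all annotated exons TXNRD1 (137) and TXN (110.5) still led in the empty vector group, but TXN2 (23.2) now stood above TXNRD2 (14.9), and GLRX2 (5.35), TXNIP (2.23) and GLRX (1.00) followed. On that basis TXNIP (8.64) stood above GLRX2 (6.59) in the overexpression group, so the order was not the same in both groups. In the deposited FPKM values, also scaled by length, TXN (64.8 to 67.5) stood above TXNRD1 (27.8 to 29.5) in the empty vector libraries. Those values imply a length of 31836 bases for TXNRD1 and 1913 for TXN, longer than either length used above. The place of GLRX2, and that of TXNRD1 against TXN, thus depends on the length used.

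**Figure D4:**
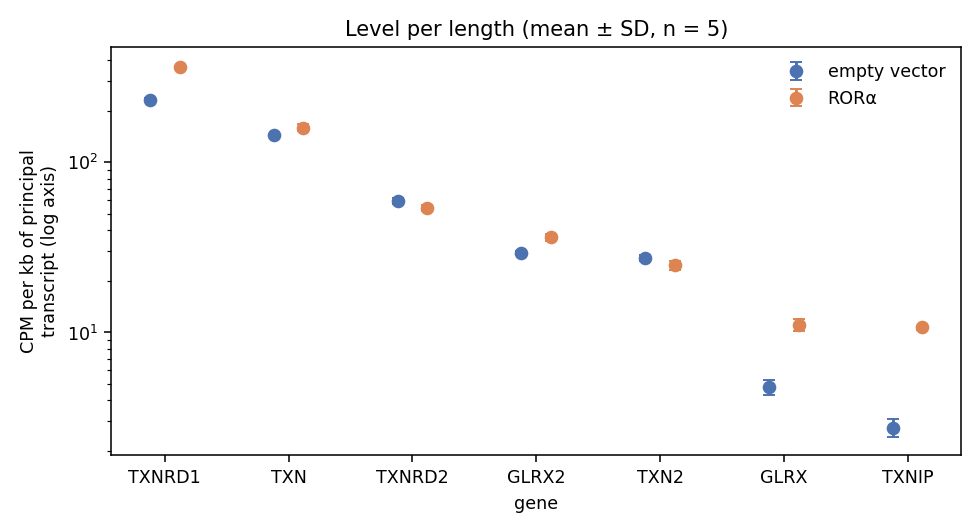
Level of each member in CPM per kb of its principal transcript (log axis), as mean ± SD over 5 libraries per group. From TXNRD1 (234 and 361) to TXNIP (2.76 and 10.7) the order is the same in both groups on this basis, though not per kb of all annotated exons, and the gap between the lowest members and the rest is smaller with RORα.

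Around these members, 8 lists of linked genes were counted in the same edgeR test, to be read against the 56.1% of all genes called. The enzymes that draw on thioredoxin mostly did not pass: of 12 tested, 1 rose and 2 fell (25% called, median log2 fold change -0.03). PRDX1, a cytosolic peroxiredoxin, fell from 239 to 200.5 CPM and PRDX3, its mitochondrial relative, from 219 to 198 CPM, while PRDX5 rose from 109 to 126 CPM. RRM1 and RRM2, the subunits of ribonucleotide reductase, stood at 167 and 162 CPM and at 387 and 383 CPM and did not pass (both named with their values known).

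Of 18 tested relatives with a thioredoxin fold, 3 rose and 5 fell (44.4% called, median -0.02). TXNDC12, an oxidoreductase of the endoplasmic reticulum, rose from 1.79 to 3.01 CPM and TMX4, a membrane-bound relative, from 47.0 to 58.5 CPM. NXN, nucleoredoxin, fell from 20.3 to 12.7 CPM and TMX3, a disulfide isomerase of the endoplasmic reticulum membrane, from 87.8 to 57.4 CPM. GLRX3, a glutaredoxin of iron handling, stood at 152 CPM in both groups, and TXNRD3, a further reductase, at 8.26 and 8.37 CPM. GLRX5, a mitochondrial glutaredoxin of iron-sulfur assembly, fell from 24.3 to 21.2 CPM (all 3 named with their values known).

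Among glutathione partners of glutaredoxin, 6 of 12 rose and 2 fell (66.7% called, median 0.17). CHAC1, which breaks glutathione down, rose from 16.3 to 46.8 CPM and GSTO1, a transferase with thioltransferase activity, from 104 to 173 CPM. GPX1, a glutathione peroxidase, rose from 4.39 to 7.25 CPM, with groups that overlapped. GCLM, the modifier subunit of the enzyme that begins glutathione synthesis, fell from 89.7 to 67.2 CPM. GSR, glutathione reductase, which recycles glutathione, was chosen after its values were seen and rose from 60.8 to 68.2 CPM.

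NADPH feeds both branches, and of 16 genes of its supply 8 rose and 4 fell (75.0% called, median 0.06). The largest changes went both ways: NADK2, the mitochondrial NAD kinase, fell most, from 136 to 32.6 CPM (edgeR adjusted p = 5.08e-32), and ME1, cytosolic malic enzyme, from 181 to 68.6 CPM. ALDH1L2, a mitochondrial folate enzyme, rose from 21.0 to 57.0 CPM, and MTHFD2, another, from 98.2 to 160 CPM.

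Of 10 genes listed for making and inserting selenocysteine, on which both reductases depend, 4 rose and 2 fell (60.0% called, median 0.14). SEPSECS, which makes selenocysteine on its tRNA, rose from 9.16 to 12.8 CPM and SEPHS2, selenophosphate synthetase, from 70.3 to 85.3 CPM. PSTK, the kinase acting just before SEPSECS, fell from 10.9 to 8.48 CPM. SEPHS1, a relative of SEPHS2 whose own part in this synthesis is in doubt, fell from 138 to 106 CPM. The called genes of this list thus moved both ways, at a share near the 56.1% of all genes tested.

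Of 9 genes tested from a list of TXNIP relatives, regulators and linked genes, 6 rose and none fell (66.7% called, median 0.25). That share is not far from the 56.1% of all genes tested. The 4 other alpha-arrestins tested all rose: ARRDC3 from 4.30 to 7.85 CPM, ARRDC4 from 1.37 to 2.46 CPM, ARRDC2 from 22.5 to 28.6 CPM and, chosen after its values were seen, ARRDC1 from 21.3 to 23.8 CPM. NEDD4L, a ubiquitin ligase, rose from 39.0 to 72.3 CPM, while ITCH, another, stood at 33.7 and 33.5 CPM (edgeR adjusted p = 0.906). SLC2A1, a glucose transporter on this list, rose from 192 to 228 CPM. ITCH and SLC2A1 were chosen after their values were seen. MLXIP, which encodes MondoA, stood at 139 and 146 CPM (edgeR adjusted p = 0.0997) and MLX, its partner, at 27.3 and 27.6 CPM, both chosen after their values were seen. Transcript levels do not show the activity of these proteins, and their part in the TXNIP change was not tested. With limma on genes of mean FPKM of at least 1, 3 of this list were called.

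Of 10 genes listed for signalling proteins linked to thioredoxin, directly or indirectly, 4 rose and 3 fell (70% called, median 0.03). HIF1A, the hypoxia factor, fell from 803 to 406 CPM, while NFKB1 rose from 88.5 to 139 CPM, DUSP1, a phosphatase of MAP kinases, from 246 to 384 CPM, and FOXO3 from 54.6 to 76.3 CPM. MAP3K5, the kinase ASK1 that reduced thioredoxin holds inactive, was chosen after its values were seen and rose from 2.39 to 3.32 CPM. Of 11 genes listed as redox transcription factors 7 rose and 2 fell (81.8% called, median 0.25). KEAP1, named with its values known, was on this list though it is not a transcription factor, and it did not pass. MAFF rose from 36.2 to 75.0 CPM, NFE2L3 from 82.8 to 149 CPM and BACH1, a repressor of antioxidant genes, from 79.8 to 139 CPM, while TFAP2A fell from 78.1 to 50.3 CPM. NFE2L2, which encodes NRF2, a known activator of TXNRD1, stood at 92.7 and 98.0 CPM (edgeR adjusted p = 0.149), chosen after its values were seen. Its transcript level does not show the activity of NRF2, and a part of NRF2 in the TXNRD1 change was not tested.

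**Figure D5:**
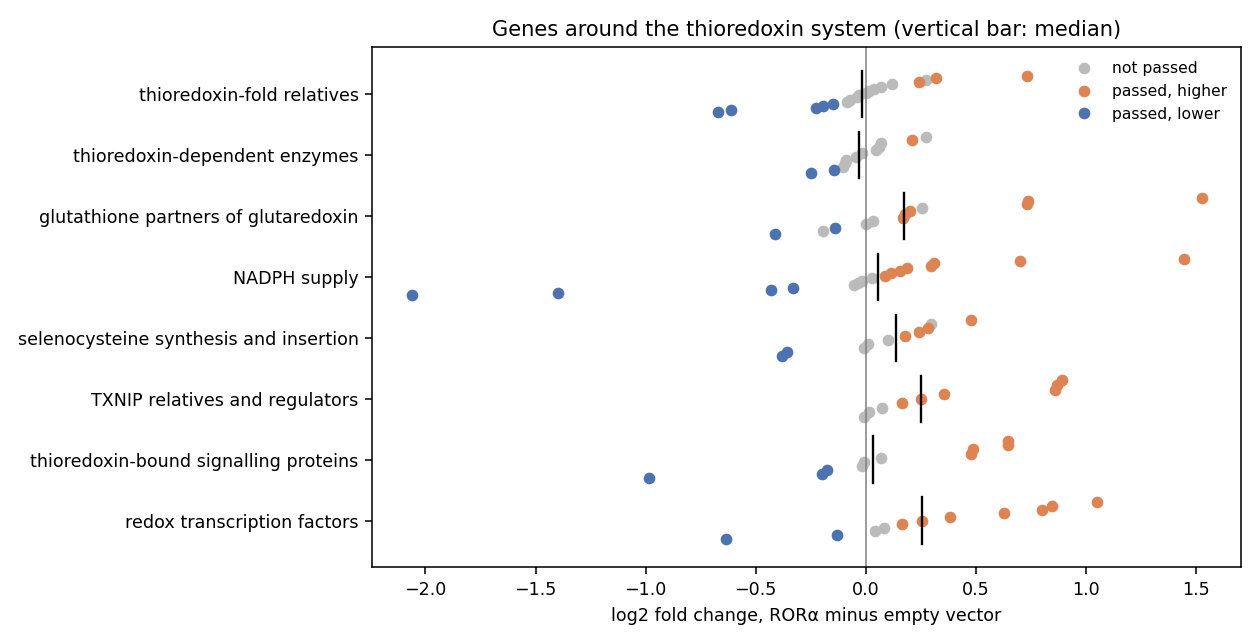
Each point is a gene of 1 of the 8 lists at its log2 fold change (RORA overexpression minus empty vector), coloured by whether it passed the edgeR test and in which direction, and the vertical bar is the list's median. Medians lie between -0.03 and 0.25, and the widest spread is that of NADPH supply, from -2.06 to 1.44.

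Likeness to the members with the largest changes was measured as Pearson's correlation of log2 CPM over the 10 libraries, given as a description without a test. For TXNIP the most alike were SERPINA1 (r = 0.997, 51.8 to 177 CPM), a protease inhibitor, ABTB2 (r = 0.997, 23.8 to 52.7 CPM) and TSC22D3 (r = 0.997, 20.4 to 40.4 CPM), a glucocorticoid-induced gene. For GLRX they were ZCCHC8 (r = 0.994, 51.4 to 64.8 CPM), SMOC1 (r = 0.993, 100.5 to 142 CPM) and SLC1A4 (r = 0.993, 41.5 to 79.1 CPM), a neutral amino acid transporter. The libraries fall into 2 groups, so r mostly follows the group difference, and 871 genes (6.96%) reached 0.95 with TXNIP and 726 (5.80%) with GLRX.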

How the data were processed

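RNA-seq of 10 libraries was analysed. Per the labels' protocols, RNA was selected on poly-T beads and primed with random hexamers. The submitters' processing notes name HISAT2 2.2.1, HTSeq and GRCh38. Neither the annotation release nor how the table came to hold 12540 genes is given there. The authors deposited raw read counts and FPKM values per gene and library, per the file headers. Members and gene lists were chosen with earlier results of these data known.

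Counts passed filterByExpr (minimum count 10, minimum total 15, which kept 12520 genes), were scaled with TMM (factors 0.991 to 1.006) and fitted with edgeR 4.0.16 in R 4.3.3 (two-sided, Benjamini-Hochberg over all genes tested, threshold 0.05). The test was checked on simulated data in which far fewer genes changed than were called here, so the check does not cover that case. A count of 0 would allow up to 0.137 to 0.172 CPM (3 counts, counting error only). Ratios used counts plus 0.5 and exact permutation tests (scipy 1.17.1). Positions, lengths and overlaps came from GENCODE 29, and promoters from RefSeq. Copies were sought with BLAST at 90% identity over 200 bases. By rule, named genes were the 7 members, RORA, up to 4 called genes per list by size, and the 3 genes most alike to the 2 members with the largest change. Further list genes were named with their values known, as marked beside each. Alternatives were DESeq2 1.42.0, RLE scaling, no filter, a replicate block, leaving out each library, and limma 3.58.1 on log2(FPKM + 1) or log2(FPKM + 0.1). Within groups, no pair of libraries was a copy (chi-square per degree of freedom 2.28 to 5.74). Pairs were not equally alike: OE3 and OE5 gave 2.52, OE2 and OE4 2.47, but OE2 and OE3 5.74. In the empty vector group EV2 and EV3 gave 2.28 and EV3 and EV4 5.19. The reason for these differences was not tested.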

Additional observations from a re-analysis of the deposited data

How the results depend on the processing

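The 7 members kept their direction in all 17 alternatives, and 6 to 7 of them were called. The exception in calls was TXN2, whose log2 fold change ran from -0.17 to -0.11 when single libraries were left out and whose call was lost without OE2. Of the 8 list counts, that of TXNIP relatives and regulators went from 6 to 3 with limma on log2(FPKM + 1) where genes needed a mean FPKM of 1, a setting that tests fewer genes. Genes called over the whole table numbered 2604 to 3590 higher and 2469 to 3531 lower. The labels do not say that replicate numbers pair libraries, and residuals of libraries with the same number correlated at -0.0837 to 0.0826, with 1 of 5 libraries most alike to its own number. With the replicate block 3544 genes were higher and 3406 lower and all 7 members were called. Taken as pairs, the ratios changed by the same 0.28 (TXN/TXN2), 0.76 (TXNRD1/TXNRD2), 0.91 (GLRX/GLRX2) and 1.82 (TXNIP/TXN) on the log2 scale with p = 0.0625 in an exact sign-flip permutation test, the smallest that 5 pairs allow. On log2(FPKM + 1) the changes of low genes are smaller by construction, with GLRX at 0.64 and TXNIP at 1.40. Depth limits GLRX and TXNIP most, with about 125 and 155 counts per empty vector library.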

Other observations

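Replicate spread was set beside the spread that counting alone would give, 100% divided by the square root of the mean count. In the empty vector group GLRX varied by 10.5% (coefficient of variation, n = 5) against 8.94% from counting, and TXNIP by 11.6% against 8.03%. TXNRD1, with 17628 counts per empty vector library on average, varied by 1.97% against 0.753%. TXN varied by 1.43% in the empty vector group and by 4.35% in the overexpression group, where counting would give 2.03% and 1.91%. TXNIP went the other way, with 2.73% in the overexpression group against 4.03% from counting.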
